A study of Mus musculus with 16 samples.

Results

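P2ry12, Tmem119, Sall1, Cx3cr1, Siglech and Gpr34 are genes by which microglia, the macrophages resident in the brain, are told from macrophages that enter a tissue from the blood. The 6 genes were chosen by name, and all 6 are among the 24982 genes of the count table. They were measured by RNA-seq in 16 primary rhabdoid tumors of mice, each from a different animal of the genotype Smarcb1flox/flox;R26-CreERT2, in which tamoxifen given to the embryo at E6, E7 or E8 activates Cre and deletes Smarcb1. The labels place 5 tumors inside the central nervous system (intra-CNS; mice aged 30 to 180 days, all induced at E6), 6 inside the skull but outside the brain (intracranial extra-CNS; 52 to 170 days) and 5 outside the skull (extracranial; 80 to 210 days). Of the 11 extra-CNS tumors, 2 came from mice induced on E6, 1 from a mouse induced on E7 and 8 from E8, so site and day of induction are partly confounded. The study places every intra-CNS tumor in its Shh subgroup and every other tumor in its Myc subgroup. Here tumors are compared by site. They are numbered within each site in deposition order, and extracranial tumor 3, a nose tumor by its label, is listed as intracranial by the study. Cre is expressed from the ubiquitous Rosa26 locus and is not limited to one cell type. The mice were of mixed 129/SV and C57BL/6 background.

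Microglia arise from the yolk sac and keep their identity in the brain through signals such as TGF-beta and through the transcription factor Sall1. Outside the brain, or in macrophages derived from monocytes, Sall1 is usually silent, while receptors such as Cx3cr1 are shared with other myeloid cells. In a whole tumor, RNA of these genes comes from any cell that transcribes them, and fewer cells of a type cannot be told apart from less RNA per cell. The comparison between sites asks whether the microglia genes accompany the myeloid cells of intra-CNS tumors and not those of tumors elsewhere.

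Total counts ranged from 17889968 to 110177889 per tumor. Smarcb1, the deleted gene, ranged from 3.99 to 58.1 TPM (transcripts per 1000000 transcripts, a scale per length) in intra-CNS tumors and from 6.48 to 43.7 TPM in extra-CNS tumors, so its level does not separate tumor from host RNA in every sample. Intra-CNS tumor 1 had the highest level, 58.1 TPM, and held 1971 TPM of the myelin gene Mbp against 2.42 to 59.7 TPM in the other 15 tumors. Intracranial extra-CNS tumor 6 came second, with 43.7 TPM of Smarcb1. Results are therefore also given without these tumors. Genes were tested with edgeR's quasi-likelihood test, adjusted over all 21854 genes with a count, and called where the adjusted p was under 0.05 and the log2 fold change was beyond 1 in either direction.

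Of the 6 genes, Siglech and Sall1 were called higher in intra-CNS tumors, as were 12.9% of all genes tested, and the other 4 were present at overlapping levels inside and outside the brain. RefSeq promoter windows (GRCm38.p6, 250 bases before to 50 bases after a start) were found for 4 of the 6 genes, P2ry12, Sall1, Cx3cr1 and Siglech, and not for Tmem119 and Gpr34. The windows of the pair that rose are shown beside that of P2ry12, which did not pass the test. Capitals mark AGGAAGT, a sequence bound by PU.1 and other Ets factors, searched on both strands. P2ry12 holds it 52 bases before its start, in chr3:59262936-59263235 (minus strand). Siglech, chr7:55767934-55768233 (plus strand), does not hold these letters. Nor does the window of Cx3cr1, which also did not pass the test and is not shown. For Sall1 the window of the outermost start is shown, chr8:89044113-89044412 (minus strand). The windows of its other two starts lie downstream, and of these chr8:89042813-89043112 holds the letters 181 bases before the start.
P2ry12: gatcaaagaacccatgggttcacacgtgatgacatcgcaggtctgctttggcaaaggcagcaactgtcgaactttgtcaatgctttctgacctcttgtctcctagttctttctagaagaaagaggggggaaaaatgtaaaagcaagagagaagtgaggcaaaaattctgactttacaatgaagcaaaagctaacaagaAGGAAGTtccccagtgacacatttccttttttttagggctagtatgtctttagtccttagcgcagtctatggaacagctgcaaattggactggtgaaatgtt
Siglech: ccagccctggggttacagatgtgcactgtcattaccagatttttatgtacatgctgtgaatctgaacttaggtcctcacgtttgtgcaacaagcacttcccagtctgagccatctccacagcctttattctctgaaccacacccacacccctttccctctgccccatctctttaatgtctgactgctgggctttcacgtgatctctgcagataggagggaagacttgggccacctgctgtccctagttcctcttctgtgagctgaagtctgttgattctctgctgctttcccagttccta
Sall1: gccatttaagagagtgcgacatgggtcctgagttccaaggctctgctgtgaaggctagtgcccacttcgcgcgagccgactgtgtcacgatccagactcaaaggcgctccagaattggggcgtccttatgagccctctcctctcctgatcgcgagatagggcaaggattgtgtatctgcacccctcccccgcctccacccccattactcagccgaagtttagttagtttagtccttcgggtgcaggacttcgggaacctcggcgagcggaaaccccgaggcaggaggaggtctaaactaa
Of all 32851 windows in the table, 9.35% hold AGGAAGT. The windows differ in CG content, with 18 CG dinucleotides in that of Sall1, 2 in that of Siglech and 4 in that of P2ry12, against a median of 7 over all windows.

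Siglech, a sialic acid-binding lectin found on microglia and also on plasmacytoid dendritic cells (ENSMUSG00000051504.18; chr7:55768154-55779448, plus strand), separated the sites. Its level in intra-CNS tumors 1 to 5 was 16.2, 4.54, 4.24, 4.51 and 5.12 TPM. In the extracranial tumors 1 to 5 it was 1.44, 0.252, 0.764, 1.07 and 0.859 TPM, and in the intracranial extra-CNS tumors it ran from 0 through a median of 0.346 to 0.990 TPM. Every intra-CNS tumor thus lay above every other tumor, and intra-CNS tumor 1 was far above the other intra-CNS tumors. In counts, intra-CNS tumors held 101 to 474 reads, and extra-CNS tumors 0 to 44. Intracranial extra-CNS tumor 2 had no Siglech read, which at its depth allows up to 0.151 CPM (3 counts; CPM is reads per 1000000), and tumor 5 had 2 reads. Floors such as this cover counting error only. The log2 fold change was 2.94 (SE 0.71, adjusted p = 0.00463), 7.70-fold, and mean log2(TPM + 1) was 2.81 ± 0.73 (SD, n = 5) against 0.64 ± 0.41 (SD, n = 11; exact permutation p = 0.000229, two-sided, the smallest that 5 against 11 tumors can give). The call held when each tumor was left out in turn, with a log2 fold change of 2.36 (adjusted p = 0.0258) without intra-CNS tumor 1 and 2.48 (adjusted p = 0.0182) without that tumor and intracranial extra-CNS tumor 6. Mice were named by numbers or with the prefix R26P, and Siglech was higher within both sets, by 2.36 in log2(TPM + 1) among the former (exact permutation p = 0.00606, two-sided) and by 1.88 among the latter (exact p = 0.1), each the smallest p possible. Against the intracranial extra-CNS tumors alone the log2 fold change was 3.53 (adjusted p = 0.00702), where 10.8% of all genes were called higher, and against the extracranial tumors it was 2.46 (adjusted p = 0.0468), where 12.1% were.

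Sall1, the zinc finger transcription factor that maintains the microglial program and that neural and kidney progenitors also express (ENSMUSG00000031665.7; chr8:89027242-89044162, minus strand), also separated the sites. Intra-CNS tumors 1 to 5 had 21.6, 19.8, 4.64, 19.2 and 8.82 TPM. The intracranial extra-CNS tumors 1 to 6 had 0.185, 3.33, 0.941, 0.770, 4.20 and 0.312 TPM. In the extracranial tumors 1 to 5 the values were 0.0399, 0.0170, 0, 0.0141 and 2.51 TPM. Every intra-CNS tumor was above each of the 11 others, and the gap between 4.64 and 4.20 TPM was narrow. In extracranial tumors 1 to 4 Sall1 rested on 0 to 2 reads, so only extracranial tumor 5, with 186 reads, carried it outside the skull. The log2 fold change was 3.19 (SE 1.10, adjusted p = 0.0342), 9.14-fold. Mean log2(TPM + 1) was 3.80 ± 0.88 (SD, n = 5) against 0.80 ± 0.90 (SD, n = 11; two-sided exact permutation test, p = 0.000229). The edgeR call was near its threshold and was lost without intra-CNS tumor 1 (adjusted p = 0.0680), 2 (0.0669) or 4 (0.0639) and without intracranial extra-CNS tumor 1 (0.0530) or 4 (0.0508). Without intra-CNS tumor 1 and intracranial extra-CNS tumor 6 it was 2.92 (adjusted p = 0.0765). Within the mice named by numbers, 3 intra-CNS against 8 extra-CNS tumors, the log2 fold change was 3.89 (adjusted p = 0.0605), and the difference in log2(TPM + 1) was 3.26 (exact permutation p = 0.00606, two-sided and the smallest possible). Within the mice named R26P, 2 against 3, that difference was 2.29 (exact p = 0.1, the smallest possible). Against extracranial tumors the log2 fold change was 4.37 (SE 1.49, adjusted p = 0.0381), and against intracranial extra-CNS tumors it was 2.64 (SE 1.29, adjusted p = 0.138). Fitted without the extracranial tumors, the latter contrast was called (2.64, SE 0.79, adjusted p = 0.0279).

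Among markers of other cells that transcribe Sall1, those of neural progenitors moved with the site. The summed level of kidney progenitor genes overlapped between the sites. Sox2, a marker of neural progenitors, had 148 to 492 TPM in the intra-CNS tumors and 0 to 31.8 TPM in the extra-CNS tumors, and the summed level of 6 neural progenitor genes was 1689 to 3503 TPM against 14.5 to 278 TPM. Of these 6 genes, 4 rose in intra-CNS tumors, Hes5, Sox1, Fabp7 and Sox2, where 12.9% of all genes were called higher. Outside the brain the order of the tumors by Sall1 was not that by the summed levels of these lists. The extra-CNS tumors with the most Sall1, intracranial extra-CNS tumors 5 and 2 and extracranial tumor 5, had summed levels of 14.5, 259.5 and 58.3 TPM over the 6 neural progenitor genes, and 108.02, 1009 and 91.96 TPM over 4 kidney progenitor genes. Sox2 alone was at 8.62, 0.0927 and 31.8 TPM in these tumors, and at 0 to 0.180 TPM in extracranial tumors 1 to 4. The 1009 TPM was the highest kidney progenitor level of the 16 tumors. Intra-CNS tumors had 11.8 to 62.6 TPM, within the extra-CNS range of 3.14 to 1009 TPM. Of the 4 kidney progenitor genes, Wt1 rose by 4.72 and Osr1 fell by 6.76 on the log2 scale (adjusted p = 0.0117 and 0.000753), and with single tumors left out 0 or 1 of the 4 rose. Which cells carried Sall1 was not tested. For Siglech, 3 of 6 plasmacytoid dendritic cell genes, Ly6d, Cd300c and Bst2, fell in intra-CNS tumors and none rose. Their summed level was 28.9 to 89.6 TPM against 190.2 to 1485 TPM, but Bst2, which interferon induces in many cells, made up 52.8% to 98.97% of it in intra-CNS and 66.9% to 99.94% in extra-CNS tumors. The sum of the other 5 genes overlapped, with 0.385 to 42.3 TPM against 0.876 to 165 TPM, and Cd300c had no read in any intra-CNS tumor and at most 19 reads elsewhere. The part of these cells in the Siglech level was not tested.

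P2ry12, the ADP receptor that guides microglial processes to injury (ENSMUSG00000036353.13; chr3:59216271-59262985, minus strand), had 35.6, 19.0, 12.7, 8.19 and 15.4 TPM in intra-CNS tumors 1 to 5. Extracranial tumors 1 to 5 had 25.1, 20.3, 18.3, 2.81 and 16.3 TPM, and the intracranial extra-CNS tumors ran from 2.88 through a median of 9.63 to 27.8 TPM. The sites overlapped, with 8 of the 11 extra-CNS tumors inside the intra-CNS range and extracranial tumor 4 well below the others of its site. The log2 fold change was -0.15 (SE 0.49, adjusted p = 0.834). The gene lies within Med12l, which is transcribed from the other strand and was higher in intra-CNS tumors (log2 fold change 2.94, adjusted p = 0.00180), with 5.42 to 14.8 TPM against 0.287 to 4.73 TPM. The library kit keeps strand, but whether the counting used it is not stated, so reads of the pair may be mixed.

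Cx3cr1, the receptor of fractalkine, shared by microglia, monocytes and other macrophages (ENSMUSG00000052336.7; chr9:120048683-120068296, minus strand), was the most abundant of the 6 genes by median TPM at both intra-CNS and extra-CNS sites. Intra-CNS tumors 1 to 5 had 64.3, 57.1, 43.5, 43.6 and 31.6 TPM. Extracranial tumors 1 to 5 had 164, 97.3, 69.4, 19.9 and 90.2 TPM. Intracranial extra-CNS tumors ran from 3.62 through 29.9 to 115 TPM. Above the highest intra-CNS tumor lay 5 extra-CNS tumors, and below the lowest lay 4. The log2 fold change was -0.90 (SE 0.61, adjusted p = 0.260).

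Gpr34, a receptor for lysophosphatidylserine (ENSMUSG00000040229.11; chrX:13622650-13640859, plus strand, within Cask on the other strand), had 26.1, 15.1, 12.9, 9.28 and 17.0 TPM in intra-CNS tumors 1 to 5. Extracranial tumors 1 to 5 had 56.7, 22.8, 16.4, 3.27 and 23.7 TPM, and the intracranial extra-CNS tumors ran from 0.482 through 7.76 to 17.1 TPM. The sites overlapped here too (log2 fold change -0.46, SE 0.72, adjusted p = 0.636). Cask had 23.6 to 39.2 TPM in intra-CNS tumors and 3.99 to 24.2 TPM in the others.

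Tmem119, a membrane protein used to stain microglia and also known from osteoblasts (ENSMUSG00000054675.5; chr5:113793729-113800396, minus strand), varied least within the brain. Intra-CNS tumors 1 to 5 had 32.9, 25.9, 23.2, 26.3 and 21.5 TPM. Extracranial tumors 1 to 5 had 14.4, 81.5, 34.9, 12.6 and 45.1 TPM, and the intracranial extra-CNS tumors ran from 9.46 through 25.0 to 126 TPM. Extra-CNS tumors thus lay on both sides of the narrow intra-CNS range, 4 above and 4 below. The log2 fold change was -1.08 (SE 0.54, adjusted p = 0.131). Of 7 osteoblast genes, Runx2 and Phex were called and lower in intra-CNS tumors, and with single tumors left out 1 to 3 of the 7 were lower and 0 or 1 higher. Phex rested on 2 extra-CNS tumors, with 58.7 and 77.8 TPM against at most 2.69 TPM in the others. Sp7, an osteoblast transcription factor, had the higher median in intra-CNS tumors, 79.4 against 1.19 TPM, and was not called (1.32, adjusted p = 0.460). The summed level of the 7 genes overlapped between the sites, with 28.7 to 286 TPM in intra-CNS and 29.97 to 915 TPM in extra-CNS tumors. The part of bone-lineage cells in its level was not tested.

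**Figure D1:**
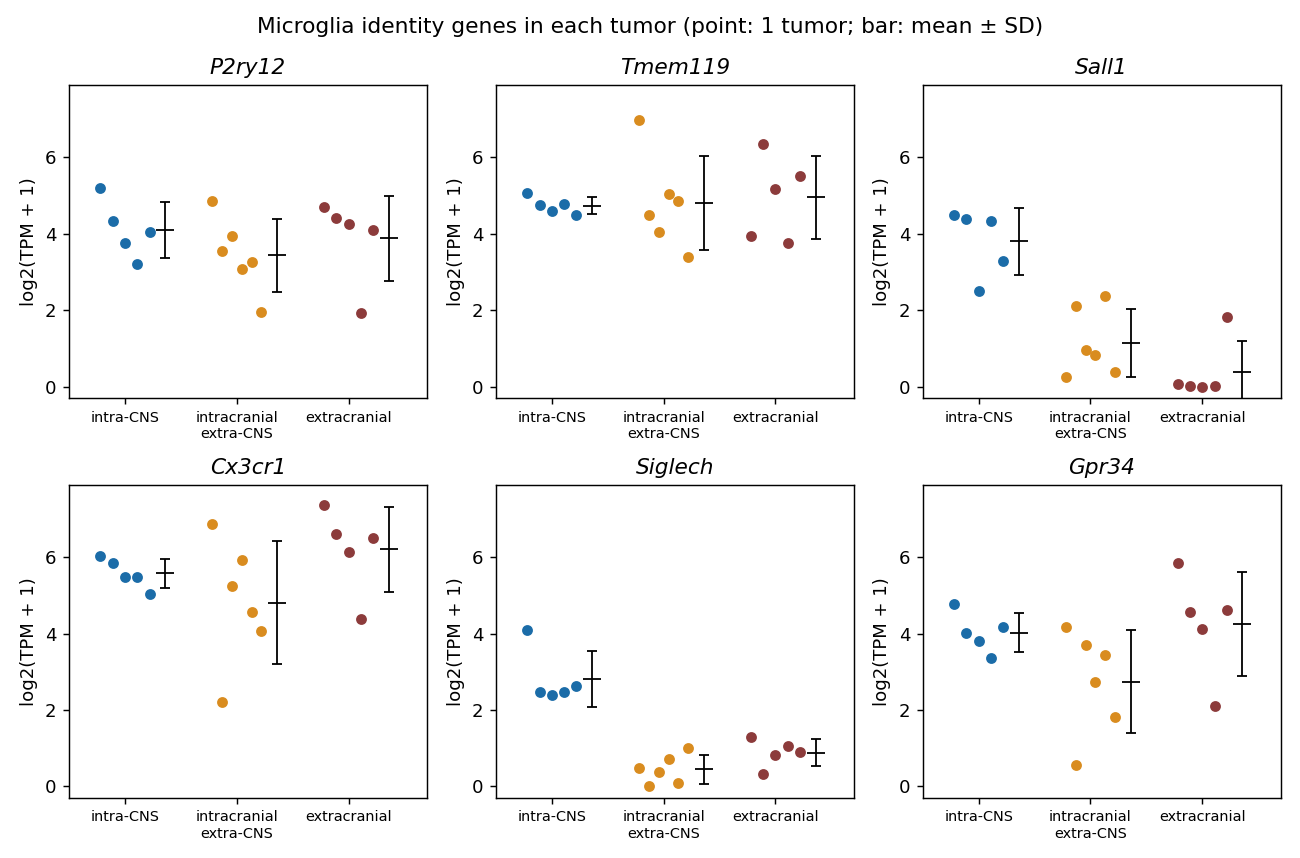
Level of each of the 6 genes as log2(TPM + 1) by tumor site, with 1 point per tumor (5 intra-CNS, 6 intracranial extra-CNS, 5 extracranial) and a bar for mean ± SD. Sall1 and Siglech do not overlap between intra-CNS tumors and the others, and the other 4 genes overlap.

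In all, 2 of the 6 genes were called in intra-CNS against extra-CNS tumors, both higher, where 2829 of all genes tested were called higher and 2860, 13.1%, lower. On the log2(TPM + 1) scale, limma called 4082 genes higher and 1324 lower. The median log2 fold change of the 6 genes was -0.30, beside -0.15 over all genes. For P2ry12, Cx3cr1 and Gpr34 the sign differed between the fits. With limma on log2(TPM + 1) they were 0.47, 0.13 and 0.59 higher in intra-CNS tumors, with no call (adjusted p = 0.493, 0.895 and 0.530). Genes whose TPM in every intra-CNS tumor exceeded that in every other tumor, as for Sall1 and Siglech, made up 12.9% of all genes. With the tumors induced at E6 alone, 5 intra-CNS against 2 extra-CNS, Sall1 and Siglech were higher by 2.25 and 2.60 (adjusted p = 0.286 and 0.177) and neither was called.

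Myeloid RNA in general was lower in the intra-CNS tumors. All 14 genes of a list shared by microglia and other macrophages, here called pan-myeloid genes, were called lower there, with log2 fold changes from -3.29 to -1.81 and a median of -2.55. Among them were Cd68, a lysosomal glycoprotein (-3.29), Spi1, which encodes PU.1 (-3.25), Adgre1, the F4/80 antigen (-3.03), and Csf1r, the receptor on which macrophages depend (-2.24, adjusted p = 0.00383). Mean log2(TPM + 1) over the list was 6.16 ± 0.25 (SD, n = 5) in intra-CNS and 7.93 ± 0.80 (SD, n = 11) in extra-CNS tumors (two-sided exact permutation test, p = 0.000458). It was also lower within the mice with numbers as names (difference -1.90, p = 0.00606) and within those named R26P (difference -1.36, p = 0.3, where 0.1 is the smallest p that the exact test can give). Intracranial extra-CNS tumor 6 had the lowest level outside the brain, with a geometric mean of 77.6 TPM, within the intra-CNS range of 53.0 to 87.3 TPM. The others had up to 641 TPM.

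Genes of monocytes and of macrophages outside the brain parenchyma were lower still. Of 12 such genes, 11 fell and none rose. The largest falls were those of F13a1, the coagulation factor XIII A chain (-6.60), Pf4, a platelet and macrophage chemokine (-6.09), Ly6c2, a surface protein of inflammatory monocytes (-5.77), and Mrc1, the mannose receptor (-5.65, adjusted p = 0.000194). Lyve1 did not pass (-3.77, adjusted p = 0.0593). Mrc1 had 1.0 to 3.89 TPM in the intra-CNS tumors and 4.08 to 219 TPM in the extra-CNS tumors, which did not overlap, as for 2.44% of all genes in this direction. The ratio of Mrc1 to P2ry12 in TPM was 0.0693 to 0.252 in the 5 intra-CNS tumors and 1.45 to 14.9 in the other 11, so P2ry12 was the more abundant in each intra-CNS tumor and Mrc1 in each extra-CNS tumor.

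Because the myeloid RNA differed, the 6 genes were also set against it. Expressed per 100 TPM of the geometric mean of the 14 pan-myeloid genes, P2ry12 was at 9.38 to 51.5 in intra-CNS tumors and 1.61 to 7.55 in the others. Siglech was at 5.16 to 23.4 against 0 to 1.28, and Sall1 at 6.61 to 31.3 against 0 to 1.97. The ranges of Cx3cr1, 49.9 to 93.0 against 1.67 to 34.5, of Gpr34, 10.6 to 37.8 against 0.222 to 8.86, and of Tmem119, 30.2 to 47.5 against 2.24 to 28.3, did not overlap either. For all 6 genes, every intra-CNS tumor was above every other tumor on this scale. This was so for 34.6% of all genes.

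**Figure D2:**
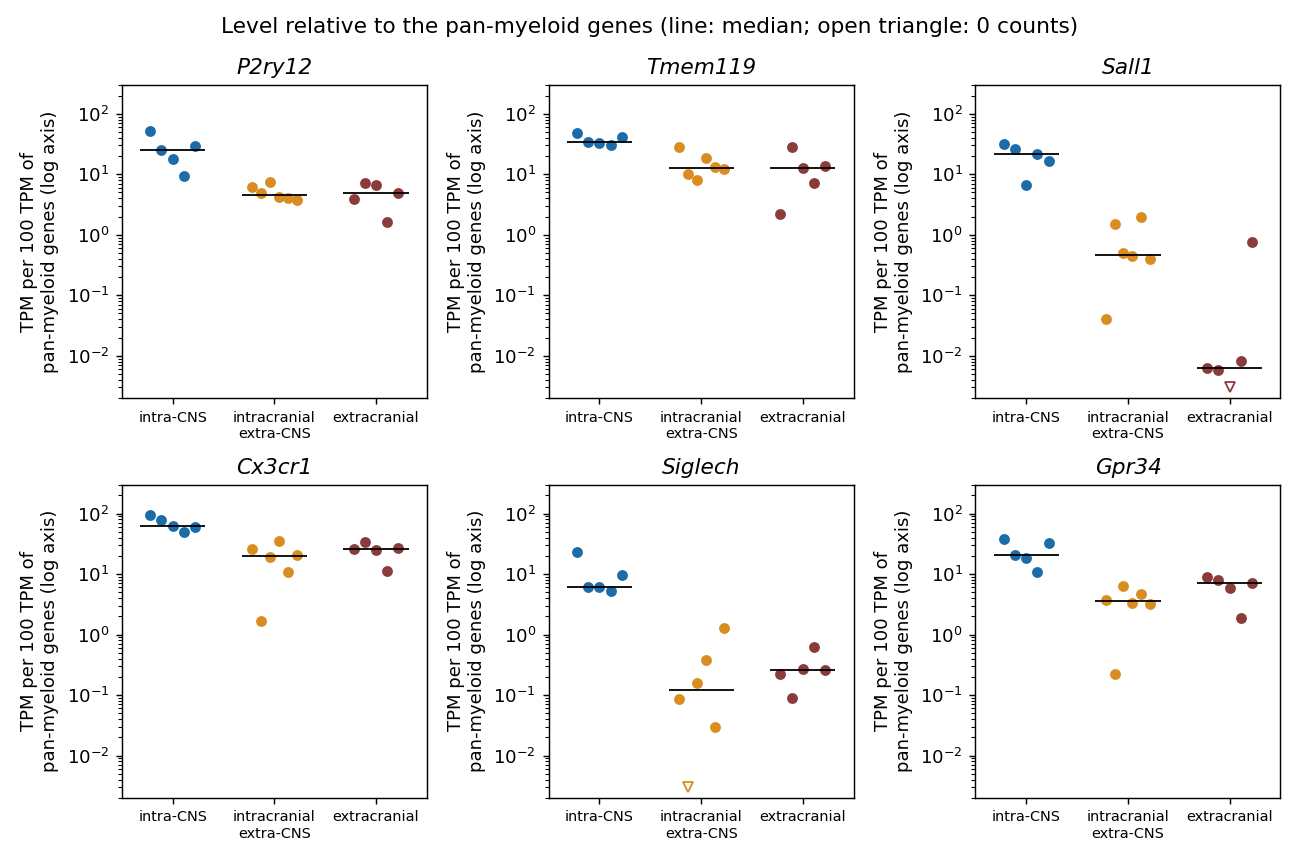
TPM of each gene per 100 TPM of the geometric mean of 14 pan-myeloid genes, on a log axis, by site, with 1 point per tumor, a line at the median and open triangles for tumors with 0 counts, drawn at the foot of the axis. In each panel the 5 intra-CNS tumors lie above the 11 others.

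With the mean log count of the pan-myeloid genes as the offset in edgeR, all 6 genes were called higher in intra-CNS tumors. On this scale 62.1% of all genes were called higher and 2.84% lower, and the median over all genes was 1.95, so the direction of the 6 genes is that of most genes. Sall1 (log2 fold change 5.33, SE 1.16, adjusted p = 0.000629) and Siglech (5.06, SE 0.86, adjusted p = 8.21e-05) stood well above that median. P2ry12 (2.43, adjusted p = 7.00e-05) and Gpr34 (2.30, adjusted p = 0.00120) stood slightly above it, and Cx3cr1 (1.68, adjusted p = 0.00240) and Tmem119 (1.41, adjusted p = 0.00723) below it. The median of the 6 genes was 2.37. The monocyte and macrophage genes went the other way, with 8 of 12 lower and none higher and a median of -2.16, though 4 were called without intra-CNS tumor 1, 2 or 5. With Csf1r as the only reference, Tmem119 (0.86, adjusted p = 0.188) and Cx3cr1 (1.16, adjusted p = 0.0733) were no longer called, and with the 3 C1q genes Tmem119 was not (1.18, adjusted p = 0.0763). Per 100 TPM of the pan-myeloid geometric mean, Csf1r was at 355 in extracranial tumor 4 and at 58.7 to 91.4 in the other extra-CNS tumors. The part of this tumor in the lost calls was not tested. Among tumors induced at E6 the call of Gpr34 was lost (1.82, adjusted p = 0.0545). Without intra-CNS tumor 1 and intracranial extra-CNS tumor 6 all 6 calls stood. Among R26P mice Sall1 alone was called (4.21, adjusted p = 0.0389), and the other 5 genes had values of 1.45 to 3.86 with adjusted p from 0.137 to 0.333.

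**Figure D3:**
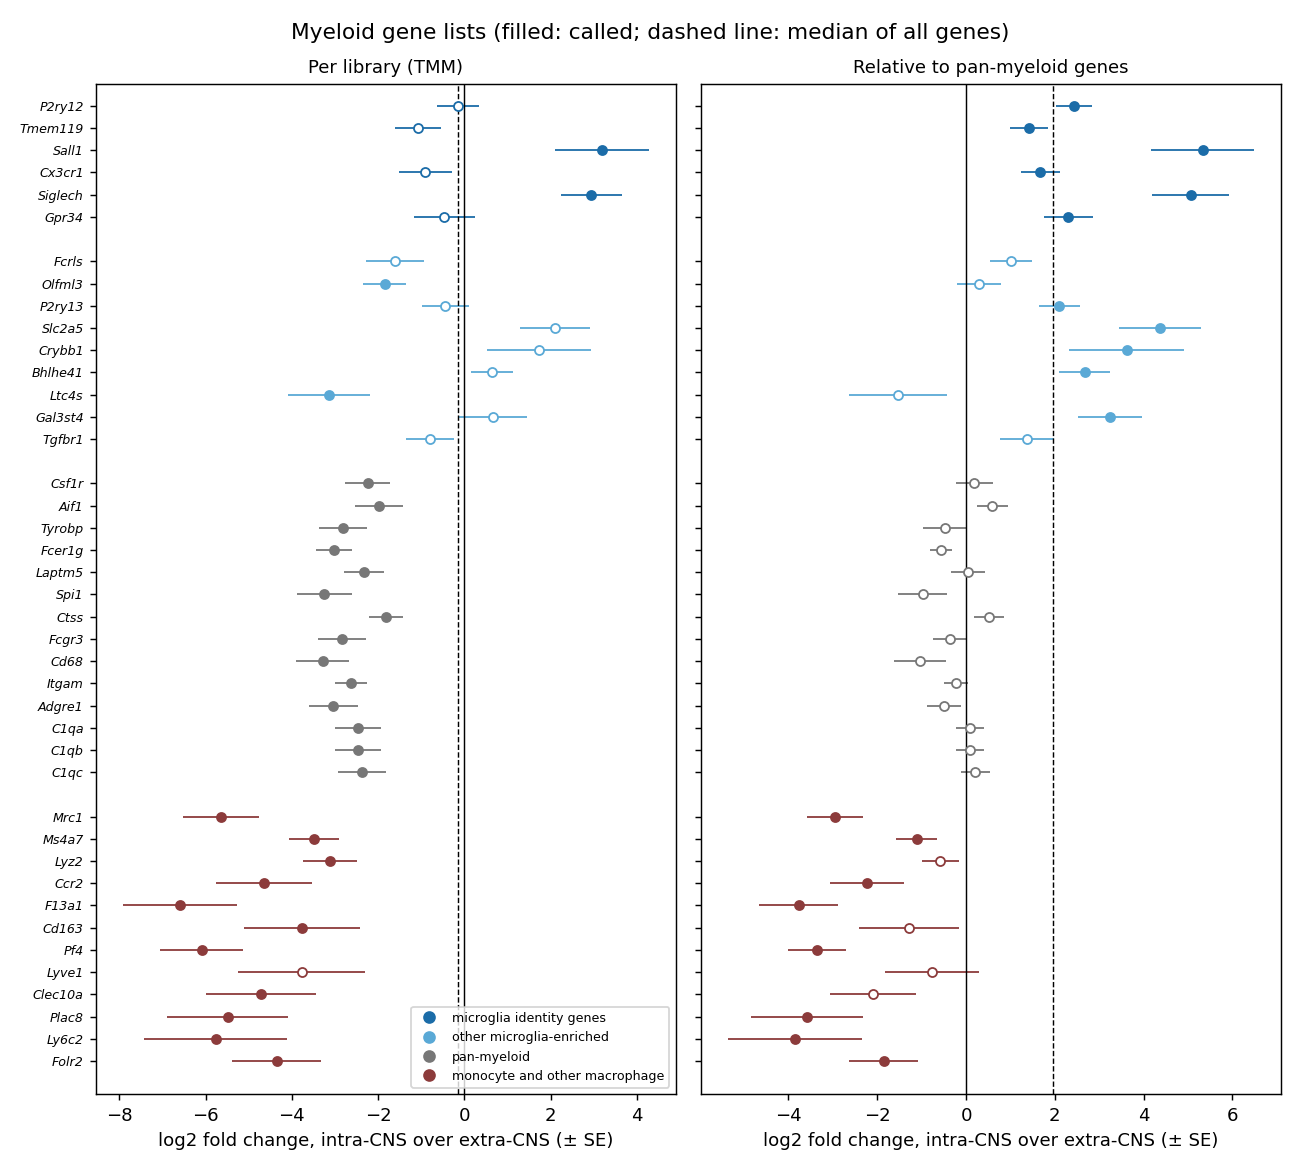
Log2 fold change of intra-CNS over extra-CNS tumors (points, ± SE) for the 6 microglia identity genes, 9 other microglia-enriched genes, 14 pan-myeloid genes and 12 monocyte and macrophage genes, per library on the left and relative to the pan-myeloid genes on the right. Filled points were called, and the dashed line is the median of all genes, -0.15 on the left and 1.95 on the right.

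Of 9 other genes enriched in microglia, none rose per library, and Olfml3, a secreted glycoprotein (-1.84, adjusted p = 0.00997), and Ltc4s, the leukotriene C4 synthase (-3.14, adjusted p = 0.0191), fell. The median was -0.44. Relative to the pan-myeloid genes 5 of the 9 were higher, where 62.1% of all genes were, and none was lower, namely Slc2a5, the fructose transporter GLUT5 (4.36), Crybb1, a crystallin made by microglia (3.62), Gal3st4, a sulfotransferase (3.24), Bhlhe41, a transcriptional repressor (2.67), and P2ry13, an ADP receptor (2.10). Slc2a5 rested on few reads, 4 to 68 in intra-CNS tumors and 0 to 15 in extra-CNS tumors. The median of the 9 was 2.10, near the 1.95 of all genes.

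Of 11 genes of activated microglia and macrophages, Cst7, a cysteine protease inhibitor induced in disease-associated microglia, rose per library (1.95, SE 0.41, adjusted p = 0.00186). The call was lost among tumors induced at E6 (1.75, adjusted p = 0.0894), numbered mice (1.56, adjusted p = 0.0567) and R26P mice (2.49, adjusted p = 0.222). It had 10.6 to 26.8 TPM in intra-CNS tumors and 1.16 to 6.98 TPM in the others, with no overlap. Relative to the pan-myeloid genes 5 of the 11 were higher and 4 lower, where 62.1% of all genes were higher and 2.84% lower. Cst7 was at 4.13 there (adjusted p = 1.42e-05), above the median of all genes, and was not called in R26P mice (4.39, adjusted p = 0.0698). Per library, Lgals3 (-4.75), Spp1 (-4.27), Cd9 (-4.19), Axl (-3.71) and Trem2 (-1.32) fell. Trem2, the lipid receptor that drives that state, had a value of 1.15 relative to the pan-myeloid genes (adjusted p = 0.00260), below the median of all genes, 1.95. That call was lost with Csf1r (0.59, adjusted p = 0.2998) or the C1q genes (0.87, adjusted p = 0.138) as the reference, among tumors induced at E6 (1.41, adjusted p = 0.0563) and in R26P mice (0.84, adjusted p = 0.581). Its fall per library was not called with limma on log2(TPM + 1) (-0.58, adjusted p = 0.270), in intracranial tumors alone (-0.88, adjusted p = 0.0746), in numbered mice (adjusted p = 0.0701) or R26P mice (adjusted p = 0.384), or without intra-CNS tumor 3 (adjusted p = 0.0518) or 5 (adjusted p = 0.0600).

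Of 15 genes that supply or transduce the signals on which microglia depend, Cx3cl1, which encodes fractalkine, the ligand of Cx3cr1, rose in intra-CNS tumors (2.39, SE 0.72, adjusted p = 0.0175), from 10.03 to 290.1 TPM against 0.588 to 49.2 TPM with overlap, but was not called without intra-CNS tumor 1 (1.91, adjusted p = 0.0704), among tumors induced at E6 (2.66, adjusted p = 0.133), in intracranial tumors alone (2.13, adjusted p = 0.0505) or in R26P mice (0.81, adjusted p = 0.735). Lower were 9 genes, among them the transcription factors Spi1 (-3.25) and Runx1 (-3.04), the TGF-beta receptor Tgfbr2 (-2.96) and the Csf1r ligand Csf1 (-2.86). The other Csf1r ligand, Il34, did not pass (-2.13, adjusted p = 0.151). Relative to the pan-myeloid genes, 3 of the 15, Cx3cl1 (4.10), Mef2c (2.33) and Smad3 (1.87), were higher, where 62.1% of all genes were, and none was lower. Smad3 lay below the median of all genes, 1.95, and Cx3cl1 was not called in R26P mice (1.72, adjusted p = 0.295). Csf1r and Spi1 belong to this list and also to the pan-myeloid genes. Their falls are thus counted in both lists, and their values on the relative scale are not independent of the offset. Mef2c is a transcription factor of microglia and neurons, and Smad3 carries TGF-beta signals.

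Within the 11 extra-CNS tumors, some of the 6 genes followed the pan-myeloid level and others did not. P2ry12 followed it most closely (Pearson's r = 0.86, permutation p = 0.000270; Spearman's rho = 0.91, p = 0.000310), then Gpr34 (r = 0.75, p = 0.00887; rho = 0.82, p = 0.00330) and Cx3cr1 (r = 0.67, p = 0.0252; rho = 0.79, p = 0.00582). Without the 2 tumors farthest from the median level, extracranial tumor 1 and intracranial extra-CNS tumor 6, r was 0.81 for P2ry12, 0.59 for Gpr34 and 0.58 for Cx3cr1. For Tmem119 r was 0.51 (p = 0.109; rho = 0.55, p = 0.0820) and rose to 0.86 without those tumors. Siglech (r = 0.10, p = 0.782; rho = 0.03, p = 0.946; r = 0.01 without those tumors) and Sall1 (r = -0.13, p = 0.691; rho = -0.15, p = 0.652; r = -0.17 without those tumors) had coefficients near 0. These are 6 relations over the same 11 libraries, and their p-values are not adjusted. Intracranial extra-CNS tumor 2 departed from the rest, with 10.6 TPM of P2ry12 beside 3.62 TPM of Cx3cr1, 0.482 TPM of Gpr34 and no Siglech read.

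**Figure D4:**
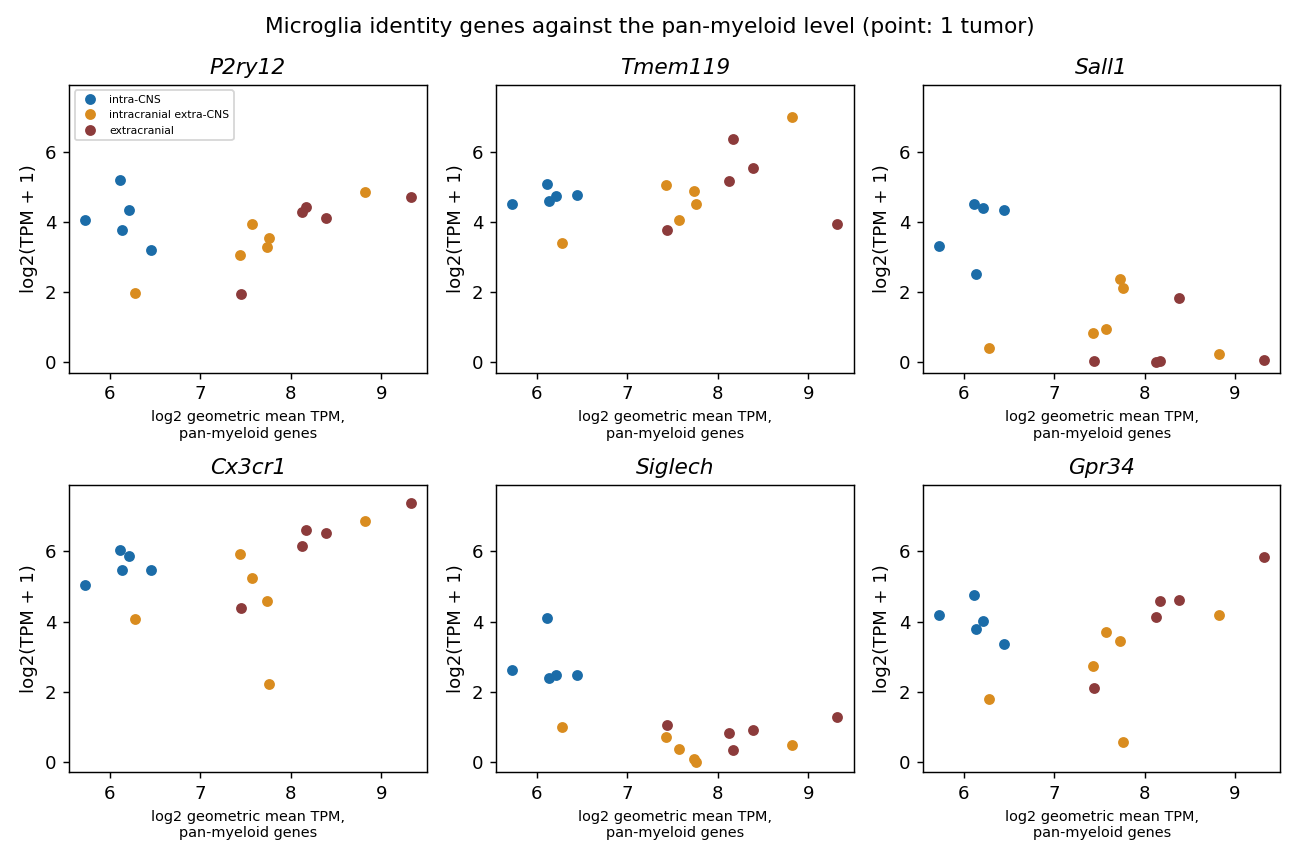
Log2(TPM + 1) of each gene against the log2 geometric mean TPM of 14 pan-myeloid genes, 1 point per tumor and colored by site. Outside the brain P2ry12, Cx3cr1 and Gpr34 are higher in tumors with more pan-myeloid RNA, while the intra-CNS tumors, at the low end of that axis, hold Sall1 and Siglech above every other tumor.

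The 6 genes also differed in how they went with one another. Cx3cr1 and Gpr34 were most alike, with r = 0.90 over 16 tumors and 0.93 over the 11 extra-CNS tumors. Sall1 and Siglech had r = 0.73 over 16 tumors, but -0.60 over the extra-CNS tumors. The ratio of Siglech to P2ry12 was 0.239 to 0.550 in intra-CNS tumors. In the extra-CNS tumors it was 0 to 0.0876 in 9 of them, while extracranial tumor 4 and intracranial extra-CNS tumor 6, with 0.382 and 0.343, lay inside the intra-CNS range.

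Among 15812 genes with a mean of at least 1 TPM, those most like each of the 6 genes by Pearson's r of log2(TPM + 1) over the 16 tumors were taken. For Gpr34 they were P2ry13 (0.91), 1700001G17Rik (0.89) and Zeb2os (0.88), and for P2ry12 they were Gatm (0.86), Trpm2 (0.84) and Tpbgl (0.82). P2ry13, another ADP receptor, had r = 0.90 with Gpr34 over the extra-CNS tumors. For Cx3cr1 the genes given are Arhgap4 (0.88) and Lyl1 (0.87). Tmem119 had the lowest values, with Myh11 (0.78), Camp (0.78) and Begain (0.78). Sall1 was most like Eid2 (0.96), Gsk3a (0.95) and Tbc1d22b (0.94). Siglech was most like Mapre2 (0.95), Smim10l1 (0.95) and Tecpr1 (0.95), of which Tecpr1 fell to 0.47 over the extra-CNS tumors. These points share libraries, and for Sall1 and Siglech the sites form separate clusters.

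Between tumors inside the skull but outside the brain and tumors outside the skull, none of the 6 genes was called. Here edgeR called 1 gene of 21261, 0.00470% (2606 at an unadjusted p under 0.05; DESeq2 called 490 genes, none of the 6). The log2 fold changes of intracranial extra-CNS over extracranial tumors were -1.63 for Gpr34 (SE 0.80, adjusted p = 0.429), -1.07 for Siglech (SE 0.93, adjusted p = 0.656), -1.06 for Cx3cr1 (SE 0.71, adjusted p = 0.536), -0.45 for P2ry12 (SE 0.58, adjusted p = 0.775), 0.07 for Tmem119 (SE 0.68, adjusted p = 0.976) and 1.71 for Sall1 (SE 1.54, adjusted p = 0.673). The value of Sall1 was 6.46 (adjusted p = 0.489) without extracranial tumor 5, the one extracranial tumor with more than 2 Sall1 reads. With this spread, differences of the size of the standard errors could not be detected.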

How the data were processed

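The 6 genes and the gene lists were chosen with earlier results of these data known. The deposited counts are whole reads per gene, made by the authors with STAR 2.5.3a on mm10, and the deposited TPM are per length and sum to 1000000 in each tumor. Trim Galore, FastQC and Picard are also named in the submitters' processing notes, and the annotation is not given in the sources used here. For genes in both tables, count to TPM ratios were compared, low counts left out. All of these lay within 5% of the gene's median, so for them both tables hold the same reads. RNA came from macrodissected tumors (TruSeq Stranded mRNA, 100 bp paired-end per the labels). Tumors were grouped by the labelled site.

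All genes read at least once in the 16 tumors entered edgeR 4.0.16 under R 4.3.3 (quasi-likelihood test, TMM), and p-values were adjusted over them by Benjamini-Hochberg. The fit relative to pan-myeloid genes took each tumor's mean log count over 14 genes as its offset. Alternatives used DESeq2 1.42.0, limma 3.58.1 on log2(TPM + 1) and log2(TPM + 0.1), filterByExpr, other references, subsets of mice and each tumor left out. Single values of log2(TPM + 1) were compared by two-sided exact permutation tests, and correlations by 100000 permutations. Each mouse gave 1 tumor. On simulated counts, edgeR was tested with TMM and with the pan-myeloid offset, DESeq2 without an offset, and limma on log2(CPM + 1). The other alternatives were not tested in this way. Nor was the fit with each site as its own group, which gave the contrasts with each extra-CNS site. Genes named beside the 6 are Smarcb1, up to 4 called genes of each list per direction by size of change, genes that a small count needs, and for each of the 6 the 3 genes with the highest correlation. Of these, 1 gene most like Cx3cr1, and 1 gene of the microglia-enriched list, which is left out of its counts, are not reported here. Med12l, Cask, Lyve1 and Il34, and the levels of Mbp, Bst2, Sp7, Phex and Sox2, were chosen after their values were seen. Positions and promoters are from RefSeq (GRCm38.p6) and gene identifiers from GENCODE M21, and all 6 genes were found there by symbol.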

Additional observations from a re-analysis of the deposited data

Results flagged for a closer look

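Among the 24 groups examined (the 6 genes, the pan-myeloid level and Smarcb1 at 3 sites), 3 held a tumor far from the others of its site by Dixon's test at 95%, where chance marks about 1 group in 20. Siglech in intra-CNS tumor 1 was at 4.11 on the log2(TPM + 1) scale, above the other 4 intra-CNS tumors, and its gap took 0.869 of the group's range. That tumor also held 1971 TPM of Mbp and 58.1 TPM of Smarcb1, and the part of normal brain in its Siglech level was not tested. P2ry12 in extracranial tumor 4 was at 1.93, below the other 4, with a gap of 0.786 of the range. Sall1 in extracranial tumor 5 was at 1.81, above the other 4, with a gap of 0.969 of the range. This tumor had 58.3 TPM over 6 neural progenitor genes, where extra-CNS tumors had 14.5 to 278 TPM. Its Sox2 level, 31.8 TPM, was the highest of the extra-CNS tumors, and the other extracranial tumors had 0 to 0.180 TPM. The part of neural cells in its Sall1 level was not tested.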

How the results depend on the processing

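In intra-CNS against extra-CNS tumors the count of called genes, 5689, was 3533 among tumors induced at E6 and 0 among R26P mice (3514 at an unadjusted p under 0.05), and 4766 to 6649 with single tumors left out. Of the 6 genes 2 were called, but 0 among tumors induced at E6, 1 among numbered mice, 0 among R26P mice, 1 without intra-CNS tumor 1 and intracranial extra-CNS tumor 6, and 1 to 2 with single tumors left out. The R26P mice alone and the fit without that pair of tumors were chosen after seeing the data. Relative to the pan-myeloid genes, 14192 genes were called, 8981 with the C1q genes as reference, 1296 among R26P mice (1 of the 6 genes, Sall1) and 13212 to 15759 with single tumors left out. Between intracranial extra-CNS and extracranial tumors 1 gene was called by edgeR, 490 by DESeq2, 2 by limma on log2(TPM + 0.1) and 0 to 3 with single tumors left out. The pan-myeloid difference of -1.76 was -1.36 within R26P mice and -1.92 to -1.62 with single tumors left out. Signs turned only for genes with no call. In intra-CNS against extra-CNS tumors, P2ry12 was 0.47 and 0.52 with limma at pseudocounts of 1 and 0.1, 0.0692 in intracranial tumors alone and -0.54 to 0.0369 (without intra-CNS tumor 4) with single tumors left out. Cx3cr1 was 0.13 and 0.16 with limma, and Gpr34 0.59 and 0.77, with 0.50 in intracranial tumors alone and -0.70 to 0.0019 (without extracranial tumor 1) with single tumors left out. Tmem119 between the extra-CNS sites was -0.15 with limma at both pseudocounts, -0.0044 with extracranial tumor 3 moved to the study's site, and -0.79, -0.12 and -0.15 without intracranial extra-CNS tumor 1 and extracranial tumors 1 and 4. As log2(TPM + 1) between intra-CNS and extra-CNS tumors, Tmem119 was 0.0384 within R26P mice and -0.285 to 0.0756 with single tumors left out (above 0 without extracranial tumor 2 or intracranial extra-CNS tumor 1), and Cx3cr1 was -0.195 to 0.321 (below 0 without intracranial extra-CNS tumor 2 or 6). The cause of these changes was not tested. The median over all genes was -0.15 with edgeR and 0.20 with limma on log2(TPM + 1). Of the other values, 497 kept their direction and call and 22 lost the call. No paired analysis was possible because every tumor came from a different mouse and replicate numbers only name tumors. Counts of 0 to 2 reads limit Sall1 in extracranial tumors 1 to 4, and site cannot be told apart from day of induction beyond the 2 extra-CNS tumors induced at E6.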

Other observations

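Lists of cells other than macrophages were also counted in intra-CNS against extra-CNS tumors. Of 6 oligodendrocyte genes, 6 were called higher in intra-CNS tumors, with a summed level of 5870 TPM in intra-CNS tumor 1 and 19.8 to 117.7 TPM in the other 4, beside 7.81 to 89.7 TPM in the extra-CNS tumors. Without intra-CNS tumor 1, none of the 6 was called (0 at an unadjusted p under 0.05) and their median log2 fold change was 0.50, and DESeq2 called none of the 6 with all tumors. Of 6 neuronal genes 3 were higher, and 2 without that tumor, and of 5 astrocyte genes 1 was. Of 7 platelet and megakaryocyte genes, 3 were lower, among them Ppbp (-6.55) and Pf4, which is also in the monocyte and macrophage list. Of 4 NK cell genes with counts, 2 were lower, among them the activating receptor Ncr1 (-6.03), and 1 or 2 with single tumors left out. None of 6 mast cell genes was called by edgeR (2 at an unadjusted p under 0.05) or by DESeq2, and their summed level was at most 9.48 TPM in any tumor.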
